A study of Rattus norvegicus with 96 samples.

Results

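The nucleus accumbens shell (NAc shell) was profiled 6 h after the last drinking session in alcohol-preferring (P) rats, a line selected for high alcohol intake. The arrays were those titled as NAc shell at 6 h: 10 from rats given limited access to ethanol and 5 from rats given water, 15 of the 96 arrays of the series. Each array measured RNA with Affymetrix rat expression probe sets after 2 cycles of amplification from 25 ng of total RNA. The rest of the series held the NAc shell at 1 h (10 ethanol, 7 water) and 24 h (11 ethanol, 5 water), and the central nucleus of the amygdala (CeA), with 10 ethanol and 5 water arrays at 6 h. All groups were P rats, so no comparison with a line that does not prefer alcohol was made, and the intake of each rat, its age and its sex were not given in the labels used here. The labels do not say whether each array was 1 rat, so p values measure the spread between arrays. Arrays are called here by the number in their title, 42 to 51 for ethanol and 25 to 29 for water.

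The NAc shell is the part of the ventral striatum that receives dopamine from the ventral tegmental area. Its main cells are GABAergic medium spiny neurons, which carry dopamine D1 or D2 receptors and make the opioid peptides dynorphin or enkephalin. Drinking raises dopamine there.

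Medium spiny neuron markers were present. Of 29 medium spiny neuron genes on the array, 26 passed the limit on dim probe sets (a mean above 7.09 log2), among them the receptors Drd1 and Drd2, the enkephalin precursor Penk and Ppp1r1b, which encodes DARPP-32. Drd1 averaged 13.6 ± 0.40 (SD, n = 10) in ethanol and 13.7 ± 0.31 (SD, n = 5) in water arrays on the log2 scale. Of 11 genes of cortical and pallial excitatory neurons on the array, 6 had a mean over the 48 arrays under the limit, including the defining Slc17a7, Tbr1 and Neurod6. Ethanol array 44 went against this. Slc17a7, the vesicular glutamate transporter of pallial neurons, was at 11.39 in it, against 6.38 to 7.78 in the other 14 arrays. Neurod6, a transcription factor of these neurons, was at 10.16, against 5.48 to 6.78, and array 45 had the next highest value of both genes. Neurod1 was at 8.15 in array 44, against 4.68 to 5.23, while Tbr1 was at 5.46, against 4.85 to 5.33. Camk2a (10.57, against 10.55 to 11.29) and Fezf2 (7.56, against 7.24 to 7.70) of the same list did not stand apart in array 44. The other members of the list were each higher in array 44 than in every other array at 6 h. The part of these markers in the results was not tested beyond leaving that array out. Of 10 choroid plexus and ependyma genes, 6 were under the limit on dim probe sets, including Kl, Folr1 and Otx2.

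No quality measure differed between the groups at an unadjusted p under 0.05. Gapdh control signal at the 3 prime end exceeded that at the 5 prime end, a difference that is larger in less intact RNA. It was 1.81 ± 0.26 (SD, n = 10) in ethanol and 2.00 ± 0.19 (SD, n = 5) in water arrays (exact two-sided permutation p = 0.173, adjusted over 4 measures 0.456). For beta-actin this difference was 3.21 ± 0.26 and 3.04 ± 0.20 (exact permutation p = 0.228, adjusted 0.456). Ethanol arrays 43 and 44 had low median correlations with the other NAc shell arrays (0.985 and 0.984), and 0 of the water arrays did. These and 3 arrays of the other times are the 5 low-correlation arrays left out in an alternative below. Array 43 had the lowest medium spiny neuron mean (10.9 against 11.3 or more in each of the other 9 ethanol arrays) and the highest oligodendrocyte mean (11.4), and array 44 had the lowest Gapdh difference (1.31) and the highest means of immediate early genes (10.8) and of cortical genes (10.4). Among water arrays, array 29 had the lowest medium spiny neuron mean (11.2 against 11.7 to 11.9) and the highest oligodendrocyte mean (11.3). In tissue, fewer cells of a type and less RNA per cell cannot be told apart.

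No gene passed the test between ethanol and water at 6 h. Of 18625 probe sets tested with limma over the 48 NAc shell arrays, 0 (0%) had an adjusted p under 0.05, and the smallest adjusted p was 0.284. At an unadjusted p under 0.05, 471 were higher (2.53%) and 504 lower (2.71%) in ethanol arrays, so the genes below are described by their values and were not called. The median difference over all probe sets was 0.01 log2, and the median standard error of a difference was 0.11. Counted as 1 probe set per gene, 10320 genes were tested and 0 (0%) passed, with 319 (3.09%) higher and 187 (1.81%) lower at an unadjusted p under 0.05. These shares are the background for the counts of gene lists below. Of these genes, 57.2% had a difference above 0, and their median difference was 0.02.

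The gene with the smallest p value was Banf1 (1367820_at), which encodes barrier-to-autointegration factor, a small protein that ties DNA to the nuclear lamina and takes part in rebuilding the nuclear envelope. In ethanol arrays 42 to 51 its log2 values were 10.35, 10.28, 10.10, 10.19, 10.27, 10.44, 10.40, 10.05, 10.17 and 10.18. In water arrays 25 to 29 they were 9.96, 9.87, 10.02, 9.89 and 9.97. Every ethanol array lay above every water array. Banf1 was the only probe set of the 18625 with that pattern (0.00537%), and the highest water and lowest ethanol values were 0.03 apart. The difference was 0.30 ± 0.06 (SE), a fold of 1.23, with an adjusted p of 0.284 in limma. It was 0.02 at 1 h and 0.12 at 24 h. In the CeA at 6 h the difference was -0.16. Without ethanol array 44 the difference was 0.32.

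Banf1 binds proteins with a LEM domain at the inner nuclear membrane. Of 16 lamina and envelope genes tested, 2 were higher at an unadjusted p under 0.05, against 3.09% of all genes, and 0 were lower. The list was chosen with the high value of Banf1 already known, so it is not independent of that gene. Besides Banf1 itself, only the LEM domain gene Lemd3 (0.21 ± 0.09 SE) was higher at that level. The count was 1 without water array 25 or without water array 26. The list's median was -0.05, with 7 members higher and 9 lower.

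The pattern of all ethanol arrays below all water arrays was met by 7 probe sets (0.0376%), of which 2 carry a gene name: Rnf145 and Sned1. Rnf145 (1384725_at) encodes a ubiquitin ligase of the endoplasmic reticulum that takes part in the control of cholesterol synthesis. Its log2 values in ethanol arrays 42 to 51 were 8.04, 7.58, 7.74, 7.997, 8.02, 7.96, 7.87, 8.01, 7.95 and 8.09. In water arrays 25 to 29 they were 8.35, 8.54, 8.12, 8.36 and 8.50. The groups did not overlap, and array 27 was the water array nearest to the ethanol arrays. The difference was -0.45 ± 0.11 (SE, adjusted p = 0.631 in limma), and a further Rnf145 probe set differed by -0.05. Sned1, named here because it met this pattern, differed by -0.23 ± 0.08 (SE).

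Rtp4 (1379285_at), an interferon-induced chaperone that helps G protein-coupled receptors reach the cell surface, had the next smallest p value among named genes lower in ethanol. Its values in ethanol arrays 42 to 51 were 7.49, 7.56, 7.34, 7.35, 7.51, 7.54, 7.58, 7.45, 7.41 and 7.66. In water arrays 25 to 29 they were 7.94, 7.72, 8.08, 7.52 and 8.01. Of the 10 ethanol arrays, 6 lay below the lowest water array, number 28, while the other 4 water values lay above every ethanol value. The difference was -0.37 ± 0.09 (SE, adjusted p = 0.631 in limma). It was -0.13 at 1 h and -0.21 at 24 h, and -0.43 in the CeA at 6 h.

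**Figure D1:**
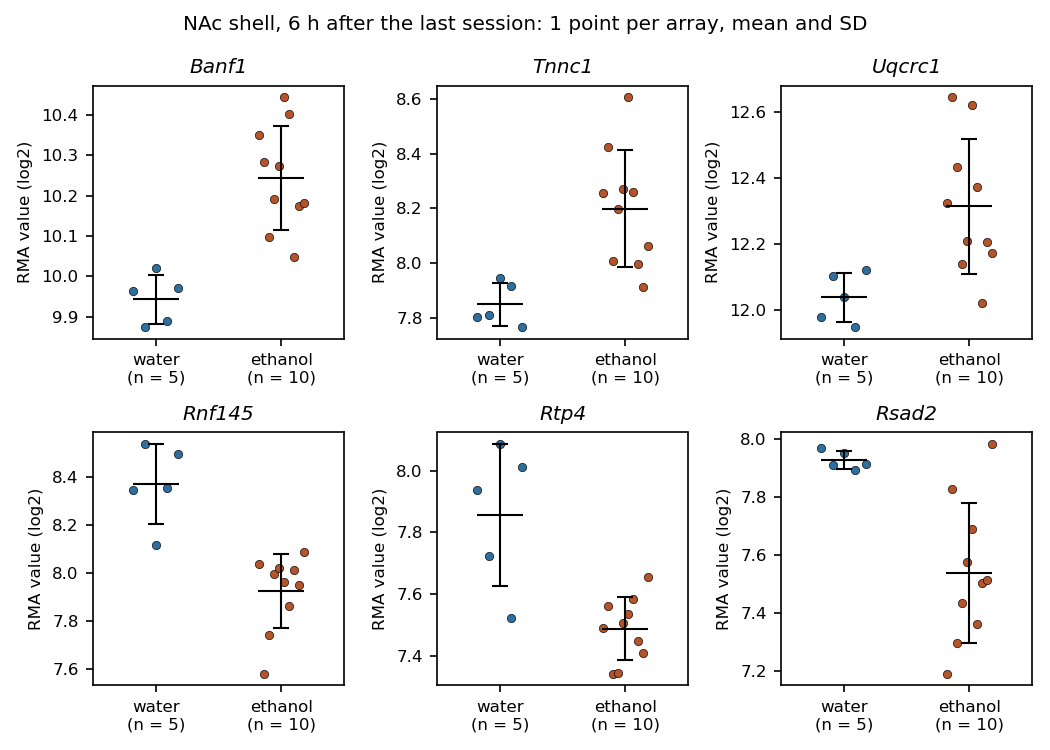
Log2 RMA values of 6 genes in the NAc shell at 6 h, 1 point per array (5 water, 10 ethanol), with the mean and SD of each group. For Banf1 all ethanol arrays lie above all water arrays and for Rnf145 all lie below, while Tnnc1, Uqcrc1, Rtp4 and Rsad2 overlap in 1 or more arrays.

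After Banf1, the other 11 named genes with the smallest p values among those higher in ethanol each had an adjusted p of 0.899. Tnnc1 (1371354_at), the calcium-binding troponin C of slow and cardiac muscle, had ethanol values from 7.91 to 8.60 with a median of 8.23. Its water values were 7.80, 7.81, 7.95, 7.92 and 7.77, so that 9 of 10 ethanol arrays lay above all water arrays. The difference was 0.35 ± 0.09 (SE). Dad1, a subunit of the oligosaccharyltransferase that glycosylates new proteins, was higher by 0.20 ± 0.06, and Cdc26, a subunit of the anaphase-promoting complex, by 0.27 ± 0.08, each with 9 of 10 ethanol arrays above all water arrays. The 8 others were Polr3c of RNA polymerase III (0.42), the ubiquitin ligase Huwe1 (0.21), the glutathione transferase Gstm7 (0.39), the RING finger gene Rnf10 (0.31), Cox14, an assembly factor of cytochrome c oxidase (0.27), the mRNA cleavage factor Nudt21 (0.30), Eif2b5 of the translation initiation factor eIF2B (0.24) and Atp6v0c of the vacuolar proton pump (0.35).

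Below Rnf145 and Rtp4, the other 10 named genes lower in ethanol also each had an adjusted p of 0.899. They were Sft2d2 (-0.30) of the Golgi transport family Sft2, the dynein arm assembly factor Dnaaf5 (-0.35), Fam193b (-0.41), Fryl (-0.23), the centriole appendage gene Cep164 (-0.33), C14h5orf52 (-0.30), the Wnt pathway pseudokinase Ptk7 (-0.43), the zinc finger genes Zfp788 (-0.21) and Zfp612 (-0.22), and the splicing factor Hnrnpa1 (-0.42). For Hnrnpa1, 2 further probe sets differed by 0.24 and by less than 0.01 in size. Among all 24 named genes, 7 had 10 further probe sets, of which 6 had the same sign and 0 had an unadjusted p under 0.05 in that direction. Opposite in sign were those of Huwe1 (-0.09) and Cep164 (0.15 and 0.02) and the Hnrnpa1 probe set at 0.24. The median further difference in the named direction was 0.005, against a median size of 0.31 for the named probe sets. The single probe sets are therefore the basis of these values.

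With the Gapdh end difference as a covariate, 1 probe set passed, Mix23 (1370953_at), named here because it passed under that setting. Mix23 belongs to a family of proteins of the mitochondrial intermembrane space. A further probe set of this gene differed by 0.02 ± 0.08 (SE). The ethanol values of the first ran from 7.21 to 7.98 and the water values from 6.99 to 7.44, so the groups overlapped. The difference was 0.31 ± 0.12 (SE, adjusted p = 0.899) without the covariate and 0.46 ± 0.08 (adjusted p = 0.00768 in limma) with it. Under that covariate Banf1 differed by 0.31 with an adjusted p of 0.0652.

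**Figure D2:**
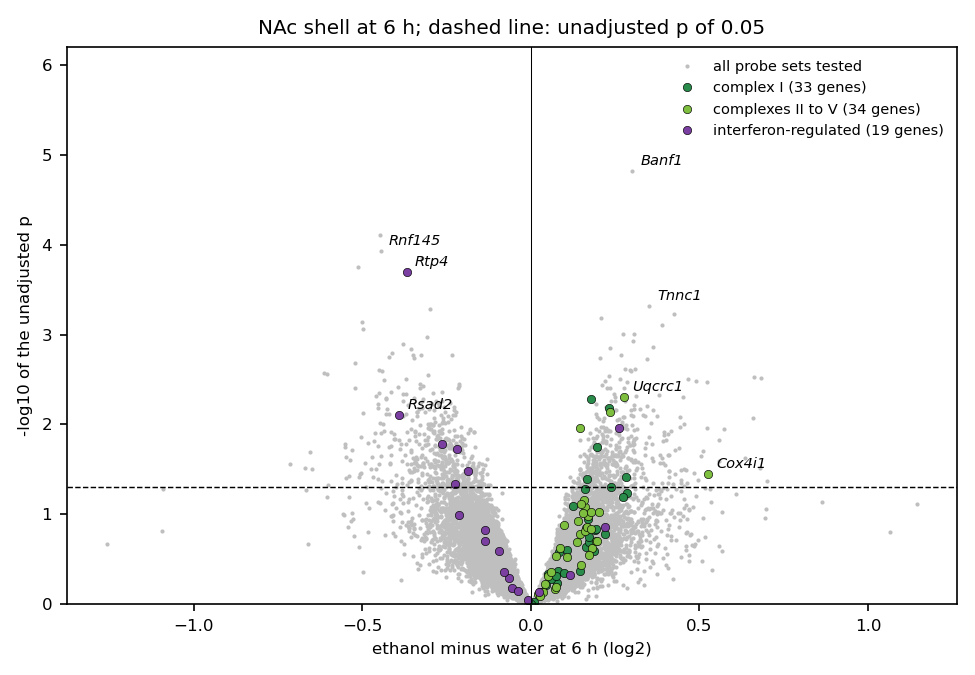
Difference between ethanol and water at 6 h (log2, horizontal) against the -log10 of the unadjusted p (vertical) for 18625 probe sets, with members of 3 gene lists coloured. All 33 complex I genes and all 34 genes of complexes II to V lie right of 0, and 15 of 19 interferon-regulated genes lie left of it.

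Interferon-regulated genes, which cells switch on in response to type I and II interferons, were mostly lower in ethanol arrays. Of 36 genes of this list on the array, 19 passed the limit on dim probe sets, and the other 17, including Mx1, Oas1a, Ifit1 and Cxcl10, were too dim to test. Of the 19 tested, 15 were lower, and 6 were lower at an unadjusted p under 0.05, which is 31.6% against 1.81% of all genes. The list was chosen with the low value of Rtp4 already known, so it is not independent of that gene. Without Rtp4 the count was 5 of 18. The median difference of the 19 was -0.09, against 0.02 for all genes, and 0 passed after adjustment.

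Rsad2 (1370913_at), which encodes the antiviral enzyme viperin, had ethanol values from 7.19 to 7.98 with a median of 7.51. Its water values were 7.97, 7.91, 7.95, 7.89 and 7.91. Of the 10 ethanol arrays, 9 lay below all water arrays, and array 51 lay above them all. The difference was -0.39 ± 0.14 (SE, unadjusted p = 0.00789). Usp18, which removes the ubiquitin-like protein ISG15 and damps the type I interferon receptor, had ethanol values from 7.27 to 7.81 and water values of 7.66, 7.87, 7.91, 7.73 and 7.77, with 6 of 10 ethanol arrays below all water arrays. It differed by -0.26 ± 0.11 (SE).

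There were 3 more members lower at an unadjusted p under 0.05. They were the transcription factor Irf7 (-0.23 ± 0.11 SE), the virus-tethering gene Bst2 (-0.19 ± 0.08) and Trim25, a ubiquitin ligase of RNA sensing (-0.22 ± 0.09). Ifit2 (-0.21 ± 0.13) and Isg15 (-0.06 ± 0.10) were lower with an unadjusted p above 0.05. In the other direction stood Psmb10, an immunoproteasome subunit, at 0.26 ± 0.10 with an unadjusted p of 0.0109. B2m, the light chain of MHC class I, was at 0.12 ± 0.16, and Ifi27 at 0.22 ± 0.15, or 0.11 without ethanol array 44. The 6 members lower at an unadjusted p under 0.05 were dim, with mean levels of 7.31 to 8.39 against a limit of 7.09. A limit at the 60th percentile left 7 genes of the list, 0 of them with an unadjusted p under 0.05 and lower. When each of the 15 arrays was left out in turn, between 4 and 6 members stayed lower at an unadjusted p under 0.05. The count was 6 without the low-correlation arrays and 6 with the Gapdh covariate.

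The mean of the list by array overlapped between the groups. In ethanol arrays 42 to 51 it was 8.24, 8.45, 8.36, 8.28, 8.35, 8.47, 8.27, 8.21, 8.33 and 8.39. In water arrays 25 to 29 it was 8.42, 8.43, 8.49, 8.35 and 8.49. Of the 10 ethanol arrays, 5 lay below the lowest water array. Microglia and vessel cells also carry interferon-regulated genes. Of 11 microglia genes tested, 6 were higher and 5 lower with a median of 0.08. Of the 11, 1 was higher at an unadjusted p under 0.05 (Trem2, 0.19 ± 0.08 SE), against 3.09% of all genes. Cx3cr1, Itgam and Ptprc were too dim to test. The summed microglia list had array means of 9.30 to 9.58 in ethanol and 9.17 to 9.56 in water. Of 20 vessel genes, 2 were lower at an unadjusted p under 0.05, against 1.81% of all genes. They were the endothelial receptors Tek (-0.22 ± 0.09 SE) and Kdr (-0.23 ± 0.10 SE). The vessel list's median was below 0.01 in size, with array means of 8.52 to 8.83 in ethanol and 8.55 to 8.81 in water. The count of vessel genes was 1 without ethanol array 48, 0 without water array 26 and 1 without water array 29. The part of these cells in the interferon list was not tested. Of 10 inflammatory and innate immune genes tested, 9 were lower, with a median of -0.08 and 0 at an unadjusted p under 0.05. Of all genes, 57.2% had a difference above 0. The cytokine genes Il1b, Il6, Tnf and Ccl2 of this list were too dim to test.

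The list was also read at the other times and in the CeA. At 1 h, 14 of the 19 were lower in ethanol arrays, with a median of -0.11, and 4 of them (Irf8, Usp18, Bst2 and Dtx3l) had an unadjusted p under 0.05, against 0.698% of all genes lower at that time. Of the 6 genes lower at 6 h at an unadjusted p under 0.05, 5 were below 0 at 1 h, and 2 also had an unadjusted p under 0.05 there. At 24 h the list was split, with 9 lower and 10 higher, a median of 0.01 and 1 member lower at an unadjusted p under 0.05 (background 0.853%). In the CeA at 6 h, 17 of 18 were lower with a median of -0.26, and 6 had an unadjusted p under 0.05 (Rtp4, Irf7, Irf8, Usp18, Psmb10 and Ifitm3), against 6.16% of all genes. Shared rats between the CeA and NAc shell are not recorded in the labels, and the fits took the arrays as separate.

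**Figure D3:**
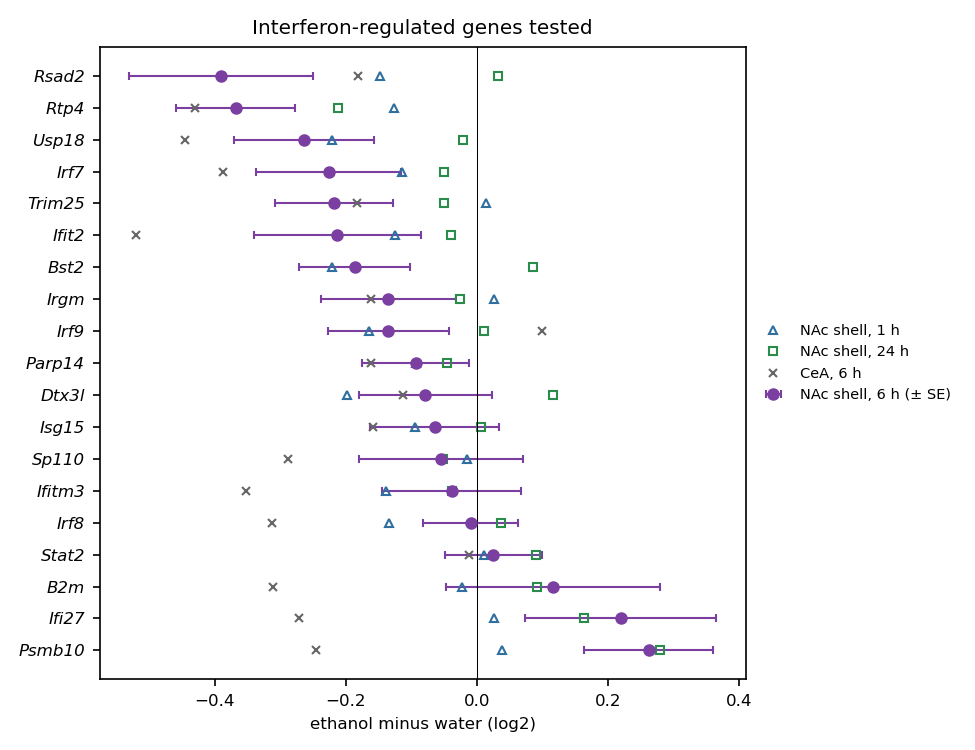
Ethanol minus water (log2) for the 19 interferon-regulated genes tested: NAc shell at 6 h with SE, NAc shell at 1 h and 24 h, and CeA at 6 h. At 6 h in the NAc shell 15 genes lie below 0, at 1 h 14 do, and at 24 h 9 do.

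Since most of these genes lay below 0, their promoters were searched for the interferon-stimulated response element, a DNA motif found in many interferon-regulated genes. The motif searched was GAAANNGAAA on the gene's strand or TTTCNNTTTC, the same motif on the other strand, in 250 bases before to 50 after each start in RefSeq (GRCr8). Of 27457 promoters, 3.77% held it. Of the 19 genes tested, 15 had a promoter in the table and 11 of these held the motif. Of these 15, 4 were lower at an unadjusted p under 0.05, and 3 of those 4 held the motif, as did 8 of the 11 others. The motif thus did not mark the genes lower at that level within the list. Most of the 11 others also lay below 0. Rtp4 and Usp18 had no entry. Bst2 and Psmb10 each held 2 matches. These matches describe letters and not binding. The stretches around the match nearest the start are shown with the motif in capitals, 5′ to 3′ on the gene's strand. They are from the 3 genes with a match that were lower at an unadjusted p under 0.05, and from Psmb10. Psmb10 was the only member higher at that level.
Rsad2 (chr6:48788233-48788292, minus strand): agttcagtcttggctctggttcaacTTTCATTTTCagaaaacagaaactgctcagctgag
Irf7 (chr1:205800058-205800117, minus strand): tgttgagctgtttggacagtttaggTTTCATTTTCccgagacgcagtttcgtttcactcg
Bst2 (chr16:18255058-18255117, minus strand): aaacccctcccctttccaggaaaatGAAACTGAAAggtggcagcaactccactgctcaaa
Psmb10 (chr19:50743293-50743334, minus strand): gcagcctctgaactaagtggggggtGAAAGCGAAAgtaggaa

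The mitochondrial respiratory chain makes most of a neuron's ATP. All 33 complex I genes tested had a difference above 0, with a median of 0.16, and 6 (18.2%, against 3.09% of all genes) were higher at an unadjusted p under 0.05. All 34 genes of complexes II to V were above 0, with a median of 0.15, and 4 (11.8%) were higher at that level. None was lower at an unadjusted p under 0.05 in either list, and 0 passed after adjustment. Members of these lists shared arrays and their levels moved together, so the count of signs is not a count of independent genes.

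Within complex I the subunits with the smallest p values were Ndufa3 (0.18 ± 0.06 SE), Ndufb8 (0.23 ± 0.08), Ndufs3 (0.20 ± 0.08) and Ndufv3 (0.28 ± 0.13). Among the later complexes, Uqcrc1 (1388301_at), a core subunit of complex III, had ethanol values from 12.02 to 12.64 with a median of 12.3. Its water values were 11.98, 12.10, 12.04, 11.95 and 12.12, with 9 of 10 ethanol arrays above all of them. It differed by 0.28 ± 0.09 (SE, unadjusted p = 0.00498). Atp5pf of the ATP synthase stalk was at 0.24 ± 0.08, and the cytochrome c oxidase subunits Cox8a and Cox4i1 at 0.15 ± 0.06 and 0.52 ± 0.24.

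The array means of complex I overlapped between the groups. In ethanol arrays 42 to 51 they were 11.76, 12.09, 11.79, 11.66, 11.85, 12.17, 11.87, 11.69, 11.80 and 11.81. In water arrays 25 to 29 they were 11.76, 11.71, 11.59, 11.67 and 11.81. Ethanol arrays 43 and 47 were the highest, and array 43 is a low-correlation array. Without the low-correlation arrays, 31 of 33 complex I genes were above 0 and 2 had an unadjusted p under 0.05. That count was 3 without ethanol array 43, 44, 46 or 47 in turn, 10 without ethanol array 49, 2 without water array 27 and 19 with the Gapdh covariate. For complexes II to V the count was 7 without water array 29 and 18 with the Gapdh covariate.

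**Figure D4:**
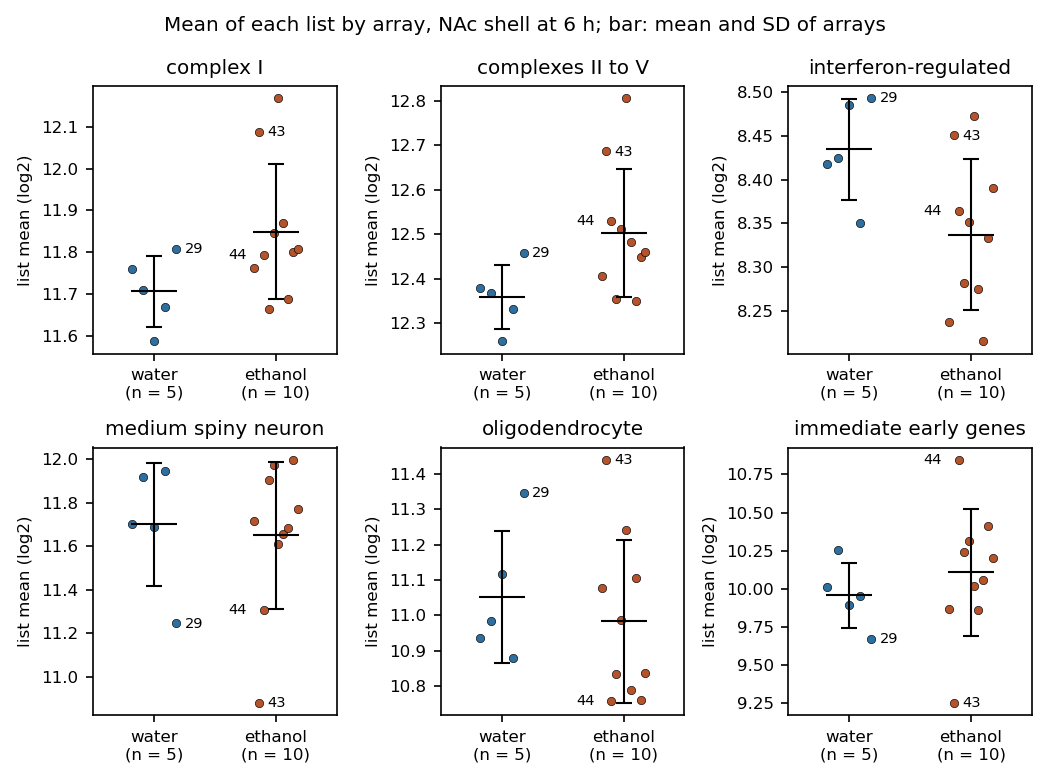
Mean log2 value of the tested members of 6 gene lists in each NAc shell array at 6 h, with the mean and SD of the 5 water and 10 ethanol arrays, and the numbers of ethanol arrays 43 and 44 and water array 29. Array 43 is lowest for medium spiny neuron genes and highest for oligodendrocyte genes, and array 44 is highest for immediate early genes.

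Most members of both lists were also above 0 in the NAc shell at the other times, with smaller medians. At 24 h all 33 complex I genes were above 0 (median 0.10), and at 1 h 24 were (median 0.03). For complexes II to V, 33 of 34 were above 0 at 24 h (median 0.11) and 31 at 1 h (median 0.05). In the CeA at 6 h the direction was opposite, with 0 of 32 complex I genes above 0 (median -0.18) and 1 of 34 of the other complexes (median -0.19). The test of the difference between regions gave 20 of 33 complex I genes and 20 of 34 others with an unadjusted p under 0.05 and a higher difference in the NAc shell, against 8.38% of all genes. Over all probe sets, 0 passed for this difference (smallest adjusted p 0.419), and 2016 (10.8%) had an unadjusted p under 0.05.

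Other groups with housekeeping roles were also higher more often than lower. Of all genes, 57.2% had a difference above 0, and 3.09% were higher at an unadjusted p under 0.05. Of 30 proteasome genes, 25 were higher (median 0.13), and 4 had an unadjusted p under 0.05: Psmd6 (0.41 ± 0.16 SE), Psmc4 (0.29 ± 0.12), Psma5 (0.23 ± 0.09) and Psmd3 (0.23 ± 0.12). Without water array 27 that count was 1, and it was 8 without ethanol array 49 or 50 and 7 without water array 29 or with quantile normalization repeated. Of 23 genes of the cytosolic ribosome, 20 were higher (median 0.12), and Rpl11 (0.20 ± 0.09 SE) and Rpl6 (0.18 ± 0.08) had an unadjusted p under 0.05. The ribosome count was 1 without ethanol array 42 or 44 or any of water arrays 25, 26 and 27, and 0 without ethanol array 47.

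Of 17 genes of the vacuolar proton pump, which acidifies lysosomes and synaptic vesicles, 14 were higher (median 0.07) and 4 had an unadjusted p under 0.05, led by Atp6v0c and Atp6v1h (0.27 ± 0.10 SE). Without water array 25 the count was 2, as it was with array weights and without the low-correlation arrays. Of 23 synaptic vesicle genes, 20 were higher (median 0.06), and the vesicle phosphoprotein Syn1 (0.31 ± 0.12 SE), the calcium sensor Syt5 (0.25 ± 0.10) and Syngr3 (0.21 ± 0.09) had an unadjusted p under 0.05. Without the low-correlation arrays 12 of the 23 were higher, and without ethanol array 44 alone 14 were. Of 27 genes of the citric acid cycle and glycolysis, 25 were higher (median 0.08), with 0 at that level.

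Protein folding genes leaned the same way. Of 26 cytosolic and mitochondrial heat shock genes, 24 were higher (median 0.09), and 4 had an unadjusted p under 0.05: the chaperonin subunits Tcp1 (0.21 ± 0.08 SE), Cct2 (0.29 ± 0.12) and Cct4 (0.19 ± 0.08) and the small heat shock gene Hspb8 (0.18 ± 0.08). That count was 2 without ethanol array 43, ethanol array 47 or water array 25, and 0 without water array 26. Of 27 genes of the endoplasmic reticulum stress response, 23 were higher (median 0.06), with the neurotrophic factor Manf (0.19 ± 0.08 SE) and the stress transcription factor Atf4 (0.33 ± 0.15) at an unadjusted p under 0.05. Their count ran from 0 to 4 when arrays were left out. It was 1 without ethanol array 43 or 46 or water array 25 or 27, 0 without ethanol array 47 or water array 26 or 28, and 4 without ethanol array 45 or 49 or water array 29.

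Of 24 cholesterol genes, 21 were higher (median 0.10), and the synthesis enzymes Cyp51 (0.31 ± 0.12 SE) and Mvd (0.23 ± 0.11, or 0.15 without ethanol array 44) had an unadjusted p under 0.05. In ethanol arrays 43 and 44 the list's mean was 10.22 and 10.37, against 9.75 to 10.10 in the other 8 and 9.81 to 10.001 in water. The count was 1 without ethanol array 43, 44 or 47, 4 without ethanol array 45, 49 or 50, 5 without water array 29, and 0 without the low-correlation arrays. For the metabolism of ethanol, aldehydes and acetate, 10 of 12 genes were higher (median 0.08) and 0 reached that level.

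A level effect was looked at beside these lists, since most of their members are abundant. When genes were divided into 4 equal groups by mean level over the 48 arrays, the median difference at 6 h was 0.02 in each group, and the share above 0 was 56.4%, 57.1%, 57.1% and 58.1% from the dimmest to the brightest. Of the complex I genes, 26 of 33 lay in the brightest group. The median difference of all genes in that group was 0.01 at 1 h and 0.03 at 24 h. In the CeA at 6 h it was -0.01 there, against -0.06 in the dimmest group.

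**Figure D5:**
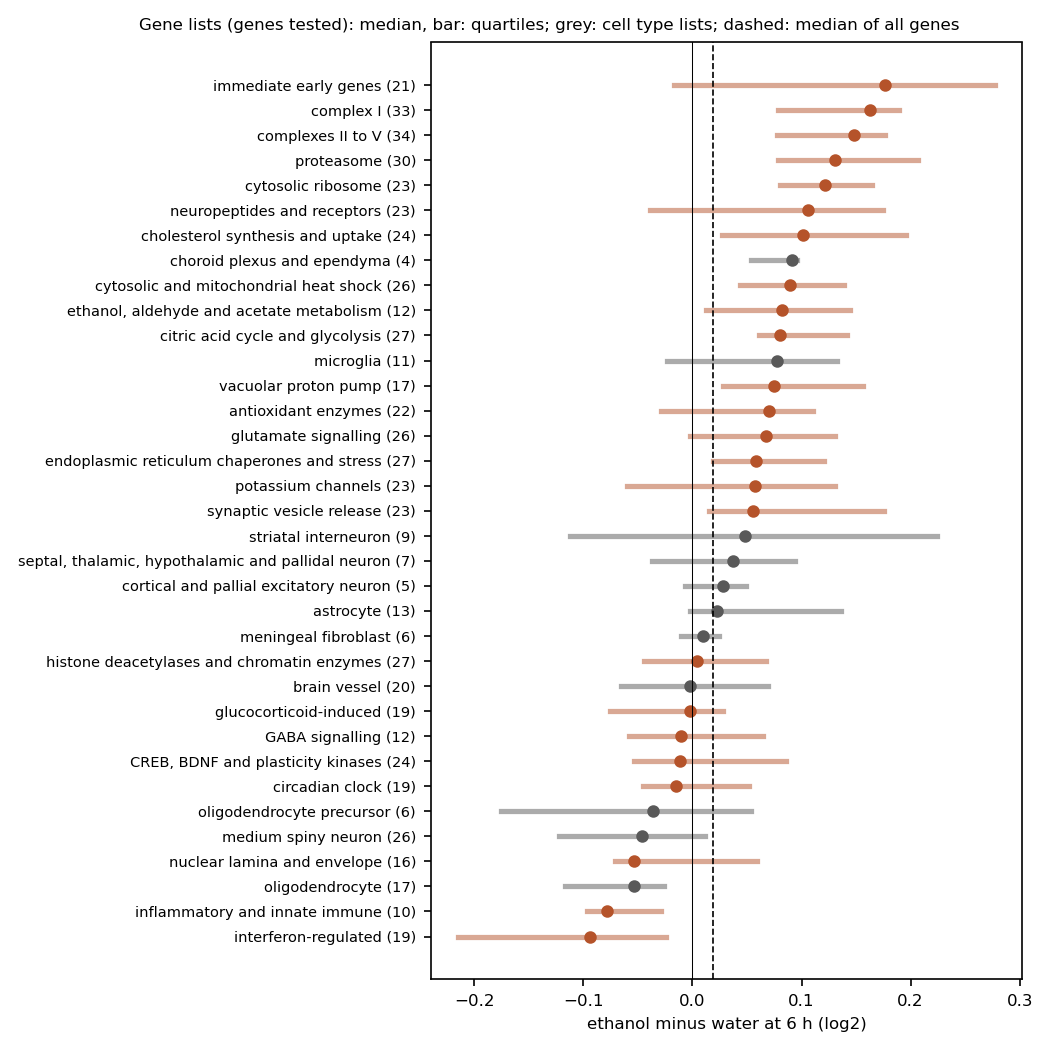
Median difference between ethanol and water at 6 h (log2) of each of 35 gene lists, with bars from the lower to the upper quartile of the members and the number of genes tested in parentheses; the dashed line is the median of all genes at 0.02. Complex I and complexes II to V stand at 0.16 and 0.15, and the interferon-regulated list is the lowest at -0.09.

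Immediate early genes are switched on in neurons within minutes of activity. Their list mean ran from 9.25 to 10.85 over the 10 ethanol arrays and from 9.67 to 10.26 over the 5 water arrays. Of 21 tested, 14 were higher and 7 lower, with a median of 0.18, where 57.2% of all genes had a difference above 0. Of the 21, 1 was higher at an unadjusted p under 0.05, which is near the background of 3.09%. The median was 0.01 without ethanol array 44, 0.07 without water array 29, 0.10 without water array 28 and 0.09 with no filter. That gene was Nr4a3 (1369067_at), a nuclear receptor, whose values were 9.95, 8.83, 11.95, 11.02, 10.58, 10.21, 10.24, 10.59, 11.04 and 10.35 in ethanol arrays 42 to 51. In water arrays 25 to 29 they were 9.98, 9.99, 10.18, 9.73 and 8.99. Of the ethanol arrays, 8 lay above all water arrays, while array 43 lay below them all. Nr4a3 differed by 0.70 ± 0.34 (SE, unadjusted p = 0.0428). For this gene, 2 further probe sets differed by 0.29 and 0.42, each with an unadjusted p above 0.05. A further probe set of Jun, outside the count above, was higher by 0.51 (unadjusted p = 0.0199 in limma). The Jun probe set in the list was at 0.22. The activity markers Fos, Arc and Junb differed by 0.26 ± 0.22, 0.20 ± 0.30 and 0.28 ± 0.19 (SE), each with an unadjusted p above 0.05. Without ethanol array 44, Arc was at 0.09 and Nr4a3 at 0.54.

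Genes that define the medium spiny neuron did not reach an unadjusted p under 0.05. Of 26 tested, 19 were lower and 7 higher, with a median of -0.05, and Foxp2 (-0.31 ± 0.20 SE) and Gnal (-0.20 ± 0.14) had the smallest p values. Foxp2 was at -0.16 without ethanol array 44. At 1 h and 24 h the list's median was 0.06 and 0.05. Drd1 differed by -0.18 ± 0.18 (SE). Oligodendrocyte genes were lower in 14 of 17 (median -0.05), and astrocyte genes were higher in 9 of 13 (median 0.02), each with 0 members at an unadjusted p under 0.05. Neither direction held under all alternatives: the oligodendrocyte median was 0.03 without water array 29, and the astrocyte median ran from -0.03 to 0.08.

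In the signalling lists few members stood apart. Of 26 glutamate genes, 19 were higher (median 0.07), and the AMPA receptor subunit Gria1 (0.25 ± 0.12 SE) had an unadjusted p under 0.05. Of 23 neuropeptide and receptor genes, the neurotensin receptor Ntsr1 (0.18 ± 0.08 SE) did. Both counts are near the background of 3.09%. The lists of GABA signalling, potassium channels, glucocorticoid-induced genes and of CREB, BDNF and plasticity kinases held 0 such members. Of 19 clock genes, the repressor Nfil3 was higher (0.23 ± 0.10 SE) and Per3 lower (-0.26 ± 0.13) at an unadjusted p under 0.05. The shares over all genes were 3.09% higher and 1.81% lower, and the clock list's median was -0.02. Of 27 chromatin enzymes, 1 was higher at that level (Hdac4, 0.19 ± 0.08 SE), and of 22 antioxidant enzymes, 1 was (the peroxiredoxin Prdx5, 0.20 ± 0.09), which is near the background of 3.09% for both lists. Without ethanol array 44 the difference of Per3 was -0.16.

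Differences at 6 h were set beside those at 1 h and 24 h, which come from other arrays. Of the 471 probe sets higher at 6 h at an unadjusted p under 0.05, 389 (82.6%) were higher at 1 h, against 51.97% of all probe sets, and 434 (92.1%) at 24 h, against 53.8%. Of the 504 lower, 379 (75.2%) were lower at 1 h, against 48.03%, and 451 (89.5%) at 24 h, against 46.2%. At 24 h, 88 of the 471 (18.7%, against 2.33% of all) and 55 of the 504 (10.9%, against 1.41%) also had an unadjusted p under 0.05 in the same direction. The fit used 1 variance per probe set over all 48 NAc shell arrays. The p values at 6 h and 24 h share it, so these last shares are not independent of the choice at 6 h. Across probe sets, which are not independent, Pearson's r with the 6 h differences was 0.39 at 1 h and 0.44 at 24 h.

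Of the 12 named genes higher at 6 h, 9 were above 0 at 1 h and 12 at 24 h, and the 12 lower were below 0 at both times. These genes were chosen at 6 h, and their differences were smaller at the other times. Polr3c, for example, was at 0.42 at 6 h, 0.02 at 1 h and 0.24 at 24 h, and Rnf145 at -0.45, -0.13 and -0.15.

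The test of the 6 h difference against the mean of those at 1 h and 24 h gave 0 probe sets with an adjusted p under 0.05 and 155 (0.832%) with an unadjusted p under 0.05. The smallest p values belonged to Asph (0.31 ± 0.10 SE), Banf1 (0.23 ± 0.08), Rftn1 (0.27 ± 0.09) and Synpo (0.31 ± 0.10), each with an adjusted p of 1.0 in limma. A difference particular to 6 h was thus not shown for any gene.

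Between regions at 6 h, the smallest p values belonged to Uqcrc1, Adgra2, Tnnc1 and Pdhx, each with an adjusted p of 0.419 in limma. Adgra2, an adhesion receptor of vessel growth, differed by 0.08 in the NAc shell and by -0.51 in the CeA. Pdhx, a component of the pyruvate dehydrogenase complex, differed by 0.31 ± 0.10 (SE) in the NAc shell and by -0.17 in the CeA.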

How the data were processed

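The deposited table holds log2 values that the authors made by RMA, per the submitters' processing notes; its version and the scan dates are not given in the sources used here. Array quartiles differed between regions, so levels were not compared between them. Of 31099 probe sets, 57 controls were left out, and 20826 carried 1 symbol. Probe sets with a mean above the 40th percentile of the 48 NAc shell arrays were tested with limma 3.58.1 in R 4.3.3 (6 group means, variance trend, Benjamini-Hochberg over 18625). The CeA was fitted on its own, and the difference between regions over all 96 arrays. Quality measures had exact permutation tests. The fit was tested on simulated data. The number of arrays limits the precision.

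Named genes were the 12 with the smallest p in each direction, 4 each for the time and region differences, and up to 4 per list, with other members where the text says so or as markers. A list used each gene's probe set with the highest mean. The members and lists were chosen with earlier results of these data known. Alternatives were other filters, the 15 arrays alone, repeated quantile normalization, array weights, the Gapdh covariate, no variance trend and each array left out. Leaving out the 5 low-correlation arrays, and counting list members under each alternative, were chosen after seeing the data.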

Additional observations from a re-analysis of the deposited data

Results flagged for a closer look

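In 124 groups of array values tested for a lone array, 8 had one far from the rest. This is near the share of about 1 in 20 that chance gives. Ethanol array 47 was highest for Cdc26 at 9.55, next to 9.33. Water array 29 had the lowest median correlation of its group (0.9904, next 0.9932), the lowest mean of the glutamate list (9.87, next 10.02) and the highest mean of the endoplasmic reticulum list (10.59, next 10.48). Ethanol array 43 had the lowest mean of the clock list (10.08, next 10.37). Ethanol array 44 had the highest mean of the synaptic vesicle list (11.80, next 11.52), the lowest of the oligodendrocyte precursor list (9.75, next 9.96) and the highest of the potassium channel list (10.32, next 10.14). Of the 8 values, 7 belong to ethanol arrays 43 and 44 and water array 29. The groups were read on the same arrays, so these values are not independent.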

How the results depend on the processing

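The count of probe sets with an adjusted p under 0.05 was 0 at 6 h under every alternative run except the Gapdh covariate, which gave 1. At an adjusted p under 0.10 the main fit also gave 0. The counts for the time and region differences at an adjusted p under 0.05 were 0 under every alternative run for them. At an unadjusted p under 0.05 the Gapdh covariate gave 1184 higher and 873 lower. The lower count was 759 with no filter and 331 with a filter at the 60th percentile, where fewer probe sets were tested. Leaving out each array in turn gave 331 to 644 higher and 251 to 639 lower, with 251 without water array 26 and 326 without ethanol array 44. Without the 5 low-correlation arrays they were 364 and 339. Why the covariate raised the counts was not tested. The named genes kept their sign under every alternative run, except the further Mix23 probe set (0.02), which ran from -0.0372 without water array 29 to 0.0674 without water array 28 and was -0.0195 without water array 27 and -0.0064 without ethanol array 51. The adjusted p of Banf1 ran from 0.0652 to 1.0. The interferon-regulated median ran from -0.13 to 0.03 and was above 0 only with the 60th percentile filter, which left 7 genes; that of complex I ran from 0.11 to 0.20. The medium spiny neuron median ran from -0.15 to 0.08. No paired analysis was possible because the labels give no pairing of ethanol and water arrays, in the NAc shell or in the CeA.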
